A study of Mus musculus with 12 samples.

Results

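The enzymes that write, keep and remove DNA methylation were followed in mouse embryonic stem cells through 8 genes: Dnmt1, Dnmt3a, Dnmt3b, Dnmt3l, Uhrf1, Tet1, Tet2 and Tet3. They were chosen by gene symbol, with earlier results of these data known, and they are 8 of the 24421 gene rows of the count table. All 8 were among the 15281 genes tested, with at least 399 counts in every library. Polyadenylated RNA was sequenced from E14, a mouse embryonic stem cell line, in 4 groups of 3 libraries. KO paused cells are labelled as knocked out for Mettl3, the catalytic subunit of the enzyme that places N6-methyladenosine on messenger RNA, and received the mTOR inhibitor INK128 at 200 nM for 2 weeks, while KO FBS cells have the same genotype label and were kept as controls. WT paused cells were wild type with the same inhibitor, and WT FBS cells were wild type controls. All 4 groups grew on gelatin in medium with FBS and LIF, and inhibition of mTOR is used to hold such cells in a state that resembles embryonic diapause. The design asks what pausing does to RNA in each genotype, how the genotypes differ in each state, and whether both respond alike. The labels give neither the number of knockout clones nor whether the 3 libraries of a group came from separate cultures, so the p-values measure the spread between these libraries only.

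DNA methylation in mammals sits mainly on the cytosine of CG dinucleotides. Dnmt1 copies it onto the new strand after replication, guided to hemimethylated CG by Uhrf1. Dnmt3a and Dnmt3b place it on unmethylated DNA, and Dnmt3l, which has no catalytic activity of its own, binds and stimulates them. Tet1, Tet2 and Tet3 oxidize 5-methylcytosine, which leads to its loss by dilution or by base excision repair. In mouse embryonic stem cells the balance of these enzymes is known to shift with the culture medium, and Tet1 and Tet2 are known as the main TET enzymes of this cell type.

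The promoters of 4 genes are shown as DNA letters, from RefSeq for build GRCm38.p6, as windows of 250 bases before to 50 bases after the annotated start, each read 5′ to 3′ on the strand of its gene. Where RefSeq listed several starts, the window with the most CG dinucleotides was taken. The first pair is Dnmt1 at chr9:20952574-20952873 (minus strand) and Uhrf1 at chr17:56304063-56304362 (plus strand). They are shown because both genes belong to the maintenance step and, relative to the typical gene, moved together between the genotypes. Capitals mark matches on either strand to an E2F motif in the forms TTTCCCGC, TTTCGCGC, TTTGCCGC and TTTGGCGC.
Dnmt1: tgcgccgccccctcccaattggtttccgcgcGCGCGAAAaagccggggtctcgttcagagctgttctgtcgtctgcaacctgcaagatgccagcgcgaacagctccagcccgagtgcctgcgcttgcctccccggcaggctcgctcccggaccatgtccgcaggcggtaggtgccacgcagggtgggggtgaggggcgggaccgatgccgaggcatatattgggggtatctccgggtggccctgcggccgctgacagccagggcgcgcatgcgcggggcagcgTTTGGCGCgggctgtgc
Uhrf1: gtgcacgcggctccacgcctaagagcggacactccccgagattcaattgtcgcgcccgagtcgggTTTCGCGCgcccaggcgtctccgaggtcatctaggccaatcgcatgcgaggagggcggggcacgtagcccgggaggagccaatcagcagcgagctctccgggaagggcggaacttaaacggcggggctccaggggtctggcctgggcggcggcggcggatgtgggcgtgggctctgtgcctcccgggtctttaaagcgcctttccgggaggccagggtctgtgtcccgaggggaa
Dnmt1 had 2 matches, which begin at positions −219 and 34 from the start, and Uhrf1 had 1, at −185. The other 6 windows had none, and 2.4% of 27025 mouse promoters, 1 per gene, held at least 1. A match is a string of letters, not a binding site.

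The second pair is Dnmt3l at chr10:78042037-78042336 (plus strand) and Tet2 at chr3:133544341-133544640 (minus strand). They are shown because they are the extremes of CG content among the 8. Relative to the typical gene, both also changed with pausing in a way that depended on genotype. Capitals mark every CG, the dinucleotide these enzymes act on.
Dnmt3l: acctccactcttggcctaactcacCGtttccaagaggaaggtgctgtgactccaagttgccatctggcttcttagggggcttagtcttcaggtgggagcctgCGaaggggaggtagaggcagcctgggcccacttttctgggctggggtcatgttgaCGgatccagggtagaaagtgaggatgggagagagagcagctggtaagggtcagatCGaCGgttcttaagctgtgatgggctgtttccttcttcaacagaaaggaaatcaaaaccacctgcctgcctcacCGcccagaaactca
Tet2: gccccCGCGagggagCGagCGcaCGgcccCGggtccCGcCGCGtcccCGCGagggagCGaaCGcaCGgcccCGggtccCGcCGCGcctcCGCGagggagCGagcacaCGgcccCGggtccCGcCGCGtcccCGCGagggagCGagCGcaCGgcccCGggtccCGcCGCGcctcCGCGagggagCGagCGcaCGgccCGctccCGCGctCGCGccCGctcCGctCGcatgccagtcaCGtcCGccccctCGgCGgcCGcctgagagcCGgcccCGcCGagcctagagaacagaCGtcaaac
The Dnmt3l window held 6 CG dinucleotides and the Tet2 window 57, against a median of 8 over all promoters. Tet2 thus stood at or above 99.9% of promoters and Dnmt3l at or above 45.8%. The others held 33 (Dnmt1 and Uhrf1), 47 (Dnmt3a), 30 (Dnmt3b), 17 (Tet1) and 22 (Tet3). Methylation itself was not measured in these libraries, which hold RNA only.

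The libraries held 10615548 to 39566713 counts. RNA came from equal numbers of cells with ERCC spike-in RNAs added, so each change is given on a relative scale, against the typical gene of the library, and on a per cell scale, against the ERCC total. Gene counts were 36.5 to 40.3 times the ERCC counts in KO paused libraries and 47.4 to 93.5 times in KO FBS libraries, and 29.0 to 37.4 times in WT paused libraries and 72.4 to 74.6 times in WT FBS libraries. On the per cell scale the median gene was therefore at log2 −1.05 in WT paused cells against WT FBS cells and at −0.71 in KO paused cells against KO FBS cells, while the relative medians of all comparisons lay between −0.04 and 0.09. WT FBS replicate 1 stands apart: 2541 genes differed more than 2-fold from the mean of the other 2 libraries of its group, Dnmt3a and Dnmt3b among them, against 72 to 644 genes for any other library. Results of the 8 genes that involve WT FBS are therefore mostly also given without it, while those of single pathway genes mostly are not. Mettl3 stood at 28.8, 31.4 and 30.0 CPM (gene counts scaled to a common library size with TMM factors) in KO paused libraries and 25.5, 27.5 and 28.6 in KO FBS libraries, against 35.1, 39.1 and 33.6 in WT paused and 31.2, 37.4 and 33.0 in WT FBS libraries. A count over the whole gene does not show whether the deleted part is missing, so it does not check the genotype labels. Each of 4 genes of the Y chromosome, Eif2s3y, Ddx3y, Kdm5d and Uty, had 593 to 3124 counts in every KO library and at most 7 in any WT library, so the 2 lines differ in more than Mettl3, and that and the knockout cannot be told apart. Between KO and WT the genes of chromosomes 1 and 8 had medians of log2 −0.28 and −0.47 in FBS and −0.44 and −0.43 in paused cells; none of the 8 genes lies on either. All 9 embryonic stem cell markers checked, among them Pou5f1, Nanog and Sox2, were present in every group. Their CPM summed to 2840 to 3130 in KO paused and 2150 to 2520 in KO FBS libraries. In WT paused libraries the sum was 5490 to 5930, and in WT FBS libraries 4590 to 5130. Tfcp2l1 alone averaged 357 CPM in KO paused and 183 CPM in KO FBS libraries, against 1480 and 1170 CPM in WT. Sox2 averaged 640 and 454 CPM in KO, against 610 and 485 CPM in WT. Nanog averaged 176 and 232 CPM in KO, against 415 and 220 CPM in WT. All markers but Nanog and Sox2 had lower means in KO than in WT cells of both states. The sum over 8 trophoblast markers was 136 to 196 CPM in KO FBS libraries and at most 25.6 CPM elsewhere. In KO FBS libraries it was mostly the keratins Krt8 and Krt18, which averaged 93.1 and 40.7 CPM. Eomes averaged 5.81 CPM in KO FBS and 5.77 CPM in WT FBS libraries, and Cdx2 1.25 and 0.922 CPM. Gata3 averaged 8.34 and 0.668 CPM, Krt7 5.2 and 0.275 CPM, Hand1 1.59 and 0.118 CPM, and Elf5 0.324 and 0.0095 CPM. The part of these markers in the KO FBS results was not tested. In such bulk libraries fewer cells of a type and less RNA per cell cannot be told apart.

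**Figure D1:**
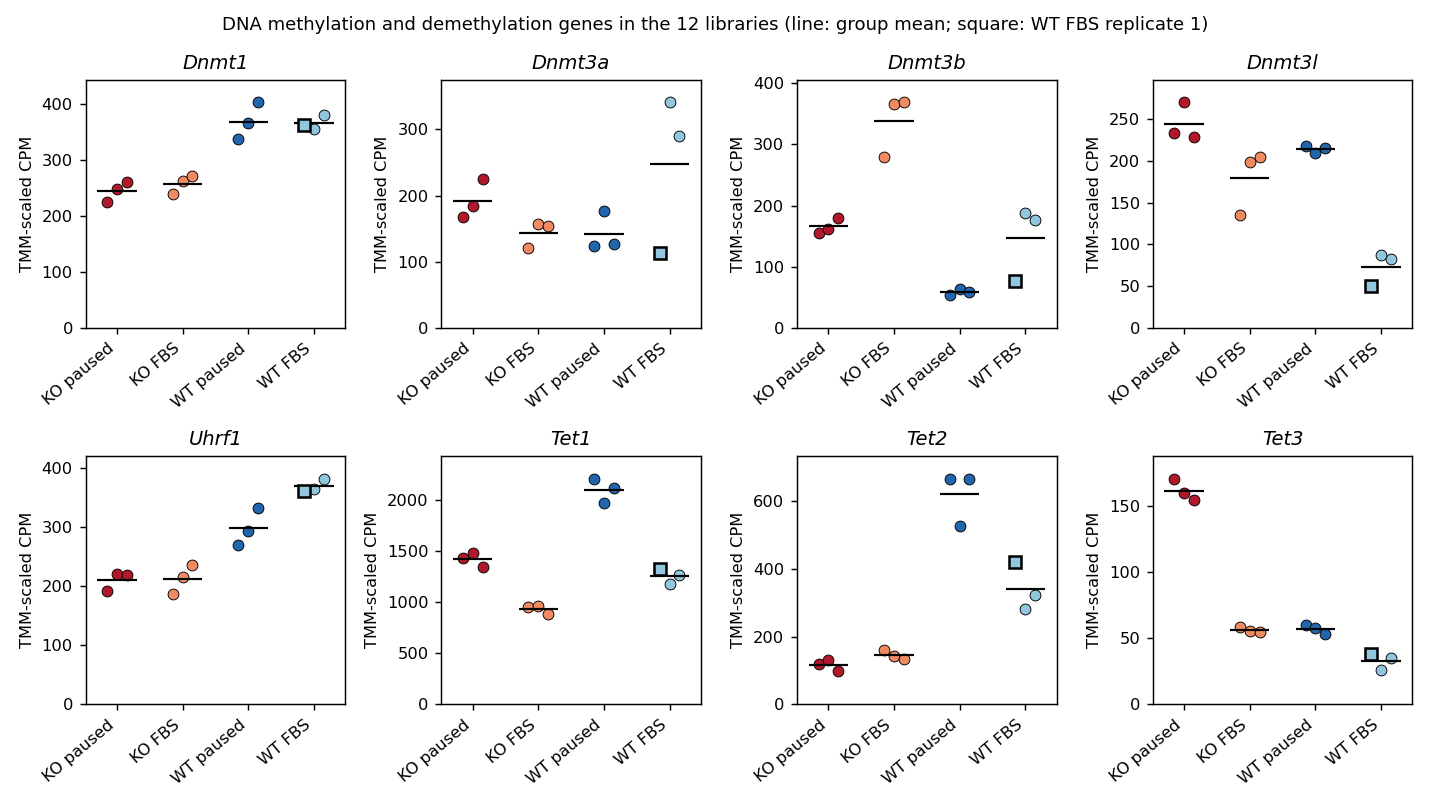
TMM-scaled CPM (vertical axis, from 0) of the 8 genes in each of the 12 libraries, by group; points are libraries, lines are group means and the square is WT FBS replicate 1. Tet2 sits at 99.9 to 161 CPM in the 6 KO libraries and at 282 to 666 CPM in the 6 WT libraries, while Tet3 reaches 154 to 171 CPM only in KO paused libraries.

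The maintenance genes Dnmt1 and Uhrf1 were lower in KO than in WT cells in both states on the relative scale, and were not called per cell. Dnmt1 (chromosome 9, 20907209 to 20959888, minus strand) stood at 225, 248 and 260 CPM in KO paused and 239, 262 and 270 CPM in KO FBS libraries, against 337, 366 and 403 CPM in WT paused and 362, 355 and 380 CPM in WT FBS libraries. Every KO library was below every WT library, while paused and FBS libraries overlapped within each genotype. Dnmt1 fell in KO FBS against WT FBS cells (log2 −0.51 ± 0.09 SE, edgeR adjusted p = 0.000468) and in KO paused against WT paused cells (−0.59 ± 0.09, edgeR adjusted p = 0.000166), and was at −0.49 in FBS without WT FBS replicate 1. On the relative scale it was at 0.01 ± 0.09 in WT paused against WT FBS cells (95% interval −0.17 to 0.19) and at −0.08 ± 0.09 in KO paused against KO FBS cells (−0.26 to 0.10).

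Uhrf1 (chromosome 17, 56303321 to 56323486, plus strand), which recruits Dnmt1, stood at 192, 221 and 219 CPM in KO paused and 187, 216 and 236 CPM in KO FBS libraries, against 270, 293 and 333 CPM in WT paused and 361, 365 and 382 CPM in WT FBS libraries. The WT FBS libraries were the highest, the WT paused libraries lay between, and the KO libraries were the lowest with both states mixed. Uhrf1 fell in KO FBS against WT FBS cells (log2 −0.79 ± 0.11, edgeR adjusted p = 4.69e-05; −0.79 without WT FBS replicate 1) and in KO paused against WT paused cells (−0.51 ± 0.11, edgeR adjusted p = 0.00167). It fell in WT paused against WT FBS cells by 0.31 ± 0.11 on the log2 scale (edgeR adjusted p = 0.0389), a call that held without KO paused replicate 1, KO FBS replicate 1 or 3, WT paused replicate 3 or WT FBS replicate 1 and was lost when any of the other 7 libraries was left out (edgeR adjusted p 0.00575 to 0.15). It was at −0.02 ± 0.11 in KO paused against KO FBS cells (95% interval −0.23 to 0.19). The pausing effects of the genotypes differed by 0.29 ± 0.15 (edgeR adjusted p = 0.209), which did not pass.

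Within each library the ratio of Uhrf1 to Dnmt1 counts was 0.854, 0.892 and 0.842 in KO paused and 0.780, 0.825 and 0.874 in KO FBS libraries, against 0.803, 0.802 and 0.827 in WT paused and 0.999, 1.03 and 1.01 in WT FBS libraries. Only the WT FBS libraries reached a ratio near 1. The WT FBS group did not overlap with WT paused or with KO FBS libraries, and 3 against 3 libraries cannot give an exact two-sided permutation p below 0.1 (0.141 after adjustment over the 24 ratio tests made).

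Of the de novo methyltransferases, Dnmt3b fell with pausing in both genotypes and was higher in KO cells in both states. Dnmt3b (chromosome 2, 153649450 to 153687730, plus strand) stood at 155, 162 and 180 CPM in KO paused and 278, 366 and 368 CPM in KO FBS libraries, against 53.8, 63.9 and 59.5 CPM in WT paused and 76.8, 188 and 177 CPM in WT FBS libraries. The KO FBS libraries were the highest and the WT paused libraries the lowest, with no overlap between the groups of any comparison. Dnmt3b fell in WT paused against WT FBS cells (log2 −1.33 ± 0.26, edgeR adjusted p = 0.0019) and in KO paused against KO FBS cells (−1.02 ± 0.25, edgeR adjusted p = 0.00556). It rose by 1.19 ± 0.25 in KO FBS against WT FBS cells (edgeR adjusted p = 0.00138) and by 1.49 ± 0.26 in KO paused against WT paused cells (edgeR adjusted p = 0.000365). Without WT FBS replicate 1 the WT pausing effect was −1.64 and the difference in FBS 0.91, both called. The pausing effects differed by 0.30 ± 0.35 (edgeR adjusted p = 0.596), and by 0.59 without that library (edgeR adjusted p = 0.00293). Over 7 formative and primed markers, all present, the summed CPM was 276 to 305 in KO paused and 192 to 203 in KO FBS libraries, against 168 to 218 in WT paused and 109 to 242 in WT FBS libraries. The sum was mostly Dusp6, Pou3f1 and Sall2, which averaged 128, 97.6 and 47.5 CPM in KO paused and 77.5, 55.1 and 29.7 CPM in KO FBS libraries. The other 4 had lower means in paused KO cells, as Dnmt3b did: Otx2 averaged 4.11 CPM in KO paused and 17.4 CPM in KO FBS libraries, Sox3 4.4 and 7.41 CPM, Lef1 4.65 and 6.97 CPM, and Fgf5 0.216 and 2.7 CPM. The part of these markers in the results was not tested.

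Dnmt3a (chromosome 12, 3806007 to 3914443, plus strand) gave no relative call that held. It stood at 168, 185 and 225 CPM in KO paused and 121, 157 and 154 CPM in KO FBS libraries, against 125, 176 and 127 CPM in WT paused and 113, 341 and 291 CPM in WT FBS libraries. WT FBS replicate 1 was the lowest of all 12 libraries and the other 2 of its group were the highest. With it, Dnmt3a in WT paused against WT FBS cells was at log2 −0.80 ± 0.31 (edgeR adjusted p = 0.0543) and in KO FBS against WT FBS cells at −0.79 ± 0.30 (edgeR adjusted p = 0.0405). Without it, these became −1.16 (edgeR adjusted p = 0.000294) and −1.11 (edgeR adjusted p = 0.000274), and the call in FBS also held without KO paused replicate 3 or WT paused replicate 2 but was lost when any of the other 9 libraries was left out. KO paused against KO FBS cells gave 0.42 ± 0.30 (edgeR adjusted p = 0.283), and KO paused against WT paused cells 0.44 ± 0.30 (edgeR adjusted p = 0.251). The pausing effects of the genotypes differed by 1.23 ± 0.43 (edgeR adjusted p = 0.0683), and by 1.56 without WT FBS replicate 1 (edgeR adjusted p = 0.000666). Exons of Dnmt3aos on the opposite strand cover 0.8% of its exon bases, and the strand setting of the counting is not given in the sources used here.

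Dnmt3l, the cofactor without catalytic activity, rose with pausing in WT cells on the relative scale and differed between genotypes in FBS. The gene (chromosome 10, 78041947 to 78063622, plus strand) stood at 234, 270 and 229 CPM in KO paused and 135, 198 and 205 CPM in KO FBS libraries, against 218, 210 and 215 CPM in WT paused and 50.7, 87.2 and 82.3 CPM in WT FBS libraries. The 3 WT FBS libraries were the lowest, and both paused groups were above both FBS groups. Dnmt3l rose by log2 1.54 ± 0.19 in WT paused against WT FBS cells (edgeR adjusted p = 0.000125) and by 1.28 ± 0.19 in KO FBS against WT FBS cells (edgeR adjusted p = 0.000104), and by 1.33 and 1.11 without WT FBS replicate 1. It was at 0.44 ± 0.19 in KO paused against KO FBS cells (edgeR adjusted p = 0.0736, and 0.0129 at an estimate of 0.42 without WT FBS replicate 1), and in KO paused against WT paused cells at 0.19 ± 0.19 (95% interval −0.18 to 0.56). The pausing effect was smaller in KO than in WT cells (difference −1.09 ± 0.27, edgeR adjusted p = 0.0145; −0.91 without WT FBS replicate 1, edgeR adjusted p = 0.00273). Aire on the opposite strand covers 2.24% of the exon bases of Dnmt3l.

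Ratios within a library, which need no scaling, separate these genes further. Dnmt3b over Dnmt3a counts were 0.925, 0.880 and 0.800 in KO paused and 2.30, 2.33 and 2.39 in KO FBS libraries, against 0.432, 0.362 and 0.470 in WT paused and 0.681, 0.552 and 0.610 in WT FBS libraries. The KO FBS libraries alone had more Dnmt3b than Dnmt3a counts, WT FBS replicate 1 lay close to the other 2 of its group in this ratio, and no groups of a comparison overlapped. Paused minus FBS, the log2 ratio differed by −0.55 in WT and −1.43 in KO cells, each at the smallest exact two-sided permutation p that 3 against 3 libraries allow (0.1, or 0.141 adjusted). Dnmt3l over Dnmt3a counts were 1.39, 1.46 and 1.01 in KO paused and 1.12, 1.26 and 1.33 in KO FBS libraries, against 1.75, 1.19 and 1.70 in WT paused and 0.449, 0.256 and 0.283 in WT FBS libraries. Here the WT FBS libraries stood below all others, while the 2 KO groups overlapped.

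**Figure D2:**
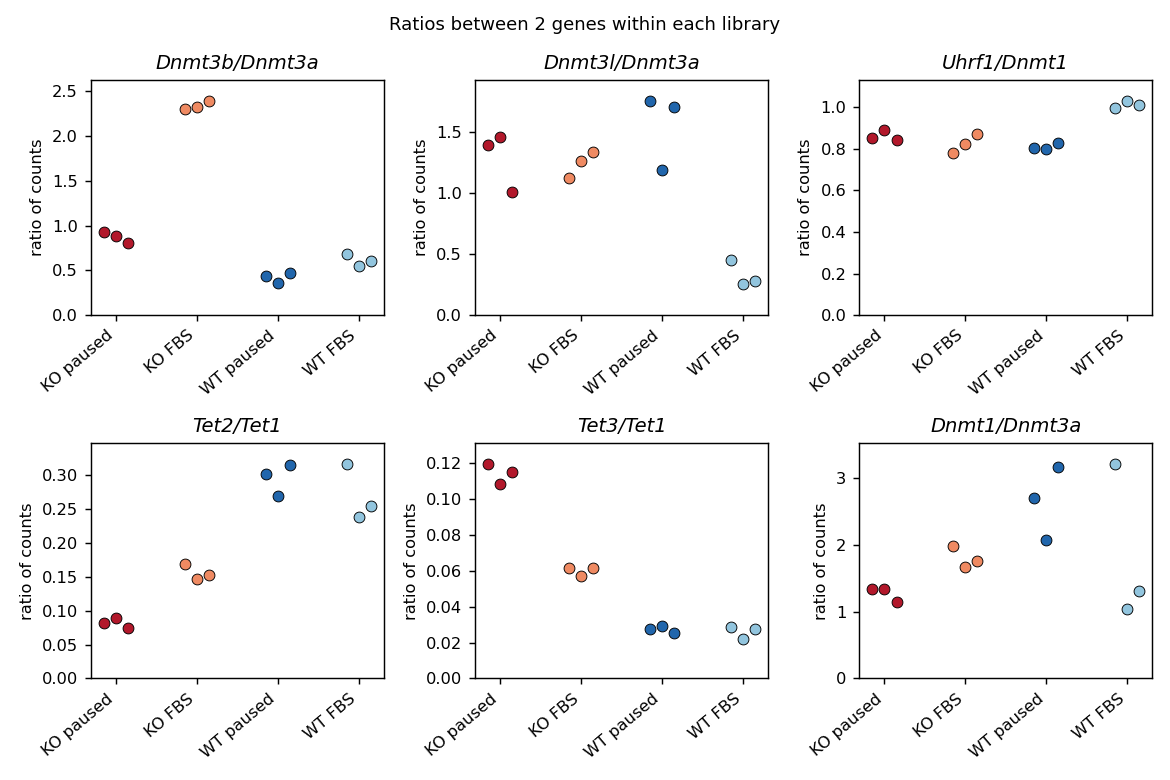
Ratios of counts of 2 genes (vertical axes, from 0) in each of the 12 libraries, by group; each point is a library. Dnmt3b/Dnmt3a is 2.30 to 2.39 in KO FBS libraries and at most 0.925 in the others, and Tet3/Tet1 is 0.108 to 0.119 in KO paused libraries and at most 0.0617 in the others.

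Among the TET dioxygenases, on the relative scale, Tet1 rose with pausing in both genotypes and was lower in KO cells in both states. Per cell it was not called in any of these comparisons. Tet1 (chromosome 10, 62804570 to 62908996, minus strand) stood at 1439, 1479 and 1348 CPM in KO paused and 958, 967 and 889 CPM in KO FBS libraries, against 2211, 1969 and 2123 CPM in WT paused and 1329, 1182 and 1266 CPM in WT FBS libraries. The groups did not overlap in any comparison, and KO paused libraries came to lie just above WT FBS libraries. Tet1 rose by log2 0.74 ± 0.09 in WT paused against WT FBS cells (edgeR adjusted p = 7.68e-05) and by 0.60 ± 0.09 in KO paused against KO FBS cells (edgeR adjusted p = 0.000151). It fell in KO FBS against WT FBS cells (−0.43 ± 0.09, edgeR adjusted p = 0.00102) and in KO paused against WT paused cells (−0.56 ± 0.09, edgeR adjusted p = 0.000147). Without WT FBS replicate 1 the WT pausing effect was 0.77 and the difference in FBS −0.36. The pausing effects differed by −0.14 ± 0.12 (95% interval −0.38 to 0.10).

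Tet2 had the largest difference between genotypes in paused cells among the 8 genes. It (chromosome 3, 133463679 to 133545139, minus strand) stood at 118, 132 and 99.9 CPM in KO paused and 161, 142 and 135 CPM in KO FBS libraries, against 665, 527 and 666 CPM in WT paused and 419, 282 and 322 CPM in WT FBS libraries. Every KO library was below every WT library, and paused libraries were the higher ones in WT and the lower ones in KO cells. Tet2 fell in KO FBS against WT FBS cells (log2 −1.22 ± 0.16, edgeR adjusted p = 3e-05) and in KO paused against WT paused cells (−2.41 ± 0.16, edgeR adjusted p = 2.02e-07). It rose in WT paused against WT FBS cells (0.86 ± 0.16, edgeR adjusted p = 0.00123) and was at −0.32 ± 0.15 in KO paused against KO FBS cells (edgeR adjusted p = 0.11, and 0.0158 without WT FBS replicate 1). The pausing effects differed by −1.19 ± 0.22 (edgeR adjusted p = 0.00329). Without WT FBS replicate 1 the difference in FBS was −1.02, the WT pausing effect 1.03 and the difference of effects −1.37.

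Tet3 was higher in KO cells and, on the relative scale, rose with pausing in both genotypes. Per cell it was at −0.26 ± 0.32 in WT paused against WT FBS cells, which was not called. The gene (chromosome 6, 83362373 to 83459084, minus strand) stood at 171, 160 and 154 CPM in KO paused and 58.9, 55.3 and 54.8 CPM in KO FBS libraries, against 60.3, 57.9 and 53.3 CPM in WT paused and 38.4, 26.3 and 35.1 CPM in WT FBS libraries. KO paused libraries were far above all others, KO FBS and WT paused libraries covered the same range, and WT FBS libraries were the lowest. Tet3 rose by log2 1.52 ± 0.12 in KO paused against KO FBS cells (edgeR adjusted p = 1.76e-06) and by 0.79 ± 0.12 in WT paused against WT FBS cells (edgeR adjusted p = 0.000501). It rose by 0.77 ± 0.12 in KO FBS against WT FBS cells (edgeR adjusted p = 0.000162) and by 1.5 ± 0.12 in KO paused against WT paused cells (edgeR adjusted p = 9.27e-07). The pausing effect was larger in KO cells by 0.73 ± 0.17 (edgeR adjusted p = 0.0111). Without WT FBS replicate 1 the WT pausing effect was 0.88, the difference in FBS 0.90 and the difference of effects 0.61.

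Tet2 and Tet3 thus moved in opposite directions against Tet1 in KO cells. Tet2 over Tet1 counts were 0.0821, 0.0894 and 0.0741 in KO paused and 0.168, 0.147 and 0.152 in KO FBS libraries, against 0.301, 0.268 and 0.314 in WT paused and 0.315, 0.238 and 0.254 in WT FBS libraries. Tet3 over Tet1 counts were 0.119, 0.108 and 0.115 in KO paused and 0.0615, 0.0572 and 0.0617 in KO FBS libraries, against 0.0273, 0.0294 and 0.0251 in WT paused and 0.0289, 0.0222 and 0.0277 in WT FBS libraries. For both ratios the 2 WT groups overlapped, the 2 KO groups did not, and no KO library overlapped with a WT library. KO paused against KO FBS libraries differed by log2 −0.93 for Tet2/Tet1 and by 0.92 for Tet3/Tet1, at the smallest exact two-sided permutation p possible (0.1, or 0.141 adjusted).

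Levels of different genes were compared per kilobase of exon. Within the TET family Tet1 made up 84.7% (range 84.4 to 85.2%) in KO paused and 83.5% (82.6 to 84.2%) in KO FBS libraries, against 77.3% (76.3 to 78.6%) in WT paused and 78.7% (76.0 to 80.7%) in WT FBS libraries. Tet2 made up 6.35% in KO paused and 11.9% in KO FBS libraries, against 20.8% in WT paused and 19.4% in WT FBS libraries. Tet3 made up 8.93% in KO paused and 4.64% in KO FBS libraries, against 1.95% in WT paused and 1.91% in WT FBS libraries. Tet3 exceeded Tet2 per kilobase in the 3 KO paused libraries and in no other. Within the DNMT3 family Dnmt3l made up 64.9% in KO paused and 44.3% in KO FBS libraries, against 78.1% in WT paused and 37.3% in WT FBS libraries. Dnmt3b made up 25.9% in KO paused and 49.2% in KO FBS libraries, against 12.6% in WT paused and 41.6% in WT FBS libraries, and Dnmt3a had the rest. In both genotypes paused libraries thus held a larger part of Dnmt3l and a smaller part of Dnmt3b. Exon lengths are those of all transcripts of a gene together (GENCODE vM21), so these shares do not account for isoforms.

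**Figure D3:**
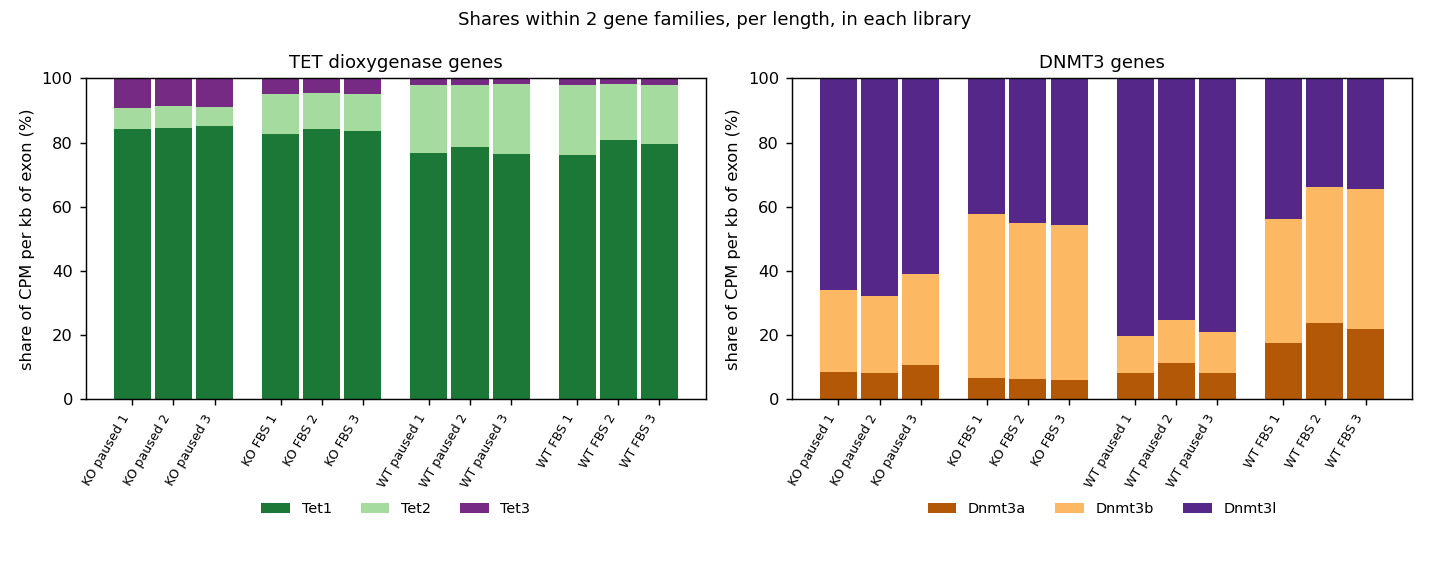
Share of each gene (vertical axis, percent of the family's CPM per kilobase of exon) in the TET family on the left and the DNMT3 family on the right; each bar is 1 library. In KO paused libraries the Tet3 share (8.48 to 9.28%) exceeds the Tet2 share (5.78 to 6.93%), and in both genotypes Dnmt3l takes a larger share in paused libraries.

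Counted on the relative scale, 4 of the 8 genes rose and 2 fell in WT paused against WT FBS cells, where 18.0% of all tested genes rose and 20.2% fell. Those that rose were Dnmt3l, Tet1, Tet2 and Tet3, and those that fell were Dnmt3b and Uhrf1. With pausing of KO cells 2 rose (Tet1 and Tet3) and 1 fell (Dnmt3b), against 23.3% and 19.4% of all genes. In KO FBS against WT FBS cells 3 rose (Dnmt3b, Dnmt3l and Tet3) and 5 fell (Dnmt1, Dnmt3a, Uhrf1, Tet1 and Tet2), against 28.4% and 29.4%. Between paused KO and WT cells 2 rose (Dnmt3b and Tet3) and 4 fell (Dnmt1, Uhrf1, Tet1 and Tet2), against 27.9% and 23.9%. The genotypes differed in the pausing effect of 3 genes, 1 more positive in KO cells (Tet3) and 2 more negative (Dnmt3l and Tet2), against 9.61% and 8.26% of all genes. With 8 genes these shares are descriptions only. Without WT FBS replicate 1, 7 genes were called for WT pausing, 5 for KO pausing, 8 between genotypes in FBS, 7 in paused cells and 5 for the difference of pausing effects. The share of all genes called also rose without that library, to 58.9%, 59.8%, 68.6%, 65.2% and 41.3% in the same order. The comparisons share groups, so their values are set side by side and not correlated.

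Per cell, 4 of the 8 genes fell with WT pausing, a smaller share than over all genes, and no TET gene was called. In WT paused against WT FBS cells Dnmt1 (log2 −1.01 ± 0.33), Dnmt3a (−1.80 ± 0.33), Dnmt3b (−2.34 ± 0.34) and Uhrf1 (−1.33 ± 0.33) fell, 4 of 8 genes against 68.8% of all genes lower and 1.15% higher. Their edgeR adjusted p ran up to 0.00433, and each call held with any single library left out; without WT FBS replicate 1 the values were −1.05, −2.15, −2.66 and −1.37. Tet1 was at −0.30 ± 0.34, Tet2 at −0.19 ± 0.32, Tet3 at −0.26 ± 0.32 and Dnmt3l at 0.51 ± 0.32, with 95% intervals that together reach from −0.97 to 1.13. All 4 lay above the median gene, which was at −1.05, and Dnmt1 lay close to that median.

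Per cell, Dnmt3b also fell in KO paused against KO FBS cells (log2 −1.82 ± 0.33, edgeR adjusted p = 7.86e-07), and so did Tet2 (−1.05 ± 0.33, edgeR adjusted p = 0.00517, and 0.0519 without KO paused replicate 3). Dnmt1 (−0.84 ± 0.33) and Uhrf1 (−0.78 ± 0.33) also fell and Tet3 rose (0.78 ± 0.32), with edgeR adjusted p of 0.0258 to 0.0364, but each of these 3 calls was lost when any KO paused library, KO FBS replicate 3 or WT FBS replicate 2 was left out. Those of Dnmt1 and Uhrf1 were also lost without KO FBS replicate 2, that of Tet3 without KO FBS replicate 1, and those of Uhrf1 and Tet3 without WT paused replicate 3. The KO FBS libraries spread most in their ERCC share. That is 4 of 8 genes lower against 45.7% of all genes and 1 higher against 2.45%. Between genotypes, per cell, Dnmt3b (1.33 ± 0.33), Dnmt3l (1.44 ± 0.33) and Tet3 (0.85 ± 0.32) rose and Tet2 (−1.14 ± 0.33) fell in KO FBS against WT FBS cells, against 19.1% of all genes higher and 9.81% lower. The Tet3 call had an edgeR adjusted p of 0.0309 and was lost without KO paused replicate 3, KO FBS replicate 2 or 3, or WT FBS replicate 2. Without WT FBS replicate 1 these 4 values were 1.01, 1.22, 0.92 and −1.0, and Dnmt3a, at −0.65 ± 0.32 with it, was called lower at −1.01. In KO paused against WT paused cells Dnmt3b (1.85 ± 0.33) and Tet3 (1.88 ± 0.33) rose and Tet2 (−2.0 ± 0.34) fell, against 27.1% higher and 5.62% lower; a further call for Dnmt3a (0.78 ± 0.32, edgeR adjusted p = 0.0482) held without KO paused replicate 1, KO FBS replicate 1 or 2, WT paused replicate 2 or WT FBS replicate 1 and was lost when any of the other 7 libraries was left out. Dnmt1, Uhrf1 and Tet1, lower in KO cells on the relative scale, were not called between genotypes per cell, with values of −0.13 to −0.67. Of the differences between pausing effects, 1 was called per cell, that of Dnmt3a (1.43 ± 0.46, edgeR adjusted p = 0.04, which held without WT FBS replicate 1, KO FBS replicate 2 or WT paused replicate 2 and was lost when any of the other 9 libraries was left out), against 3.04% of all genes higher and 1.66% lower. The per cell differences of Dnmt3l (−0.86 ± 0.45), Tet2 (−0.86 ± 0.46) and Tet3 (1.04 ± 0.45), called on the relative scale, had edgeR adjusted p of 0.203 to 0.346.

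**Figure D4:**
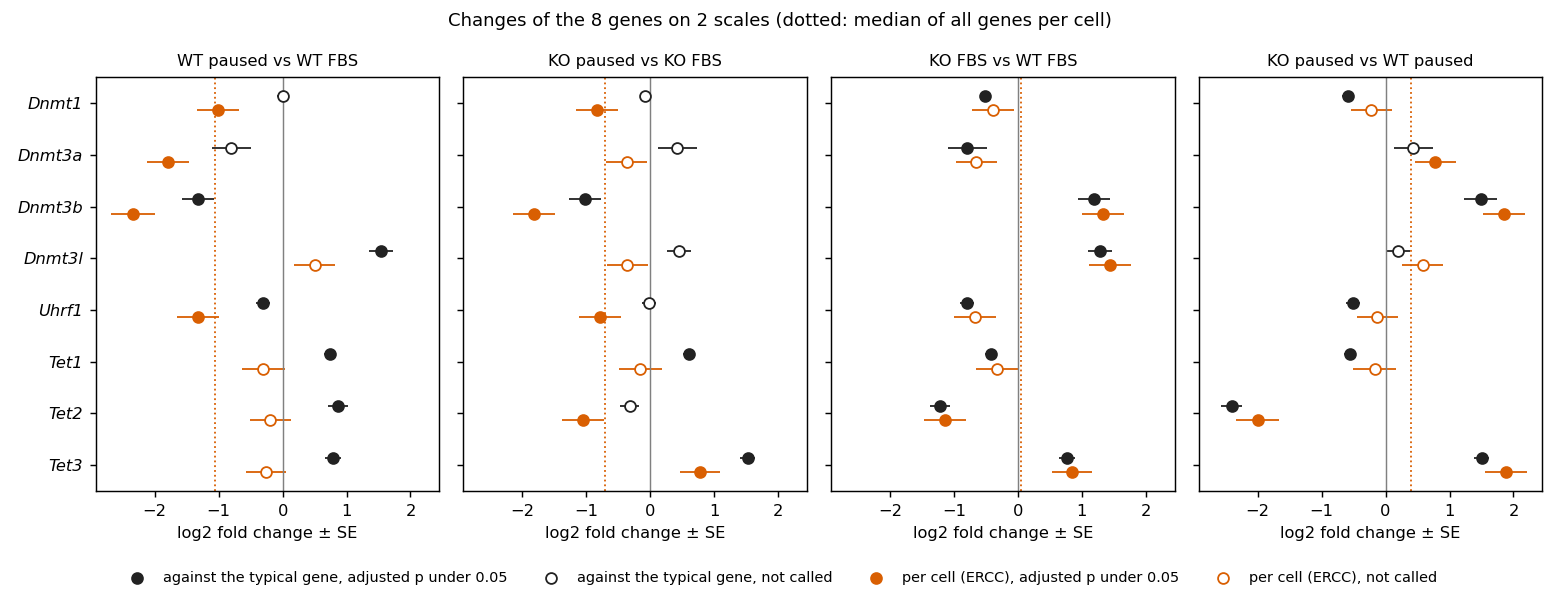
Log2 fold change with its standard error (horizontal axis) for the 8 genes in 4 comparisons, named as first group against second; black is the relative scale, orange the per cell scale, filled points passed an adjusted p of 0.05 and the dotted line is the per cell median of all genes. On the relative scale Dnmt3b is at −1.33 for WT pausing, −1.02 for KO pausing, 1.19 between genotypes in FBS and 1.49 in paused cells, and Tet2 reaches −2.41 in KO paused against WT paused cells.

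Each gene was set beside its chromosomal neighbours, up to 25 tested genes on each side. Tet2 went against its neighbours. In KO paused against KO FBS cells the 50 neighbours of Tet2 had a median of log2 0.74 with 78% called (42.7% of all genes), while Tet2 was at −0.32. In KO paused against WT paused cells they had a median of 0.62 with 76% called (51.8% of all genes), while Tet2 was at −2.41, and the difference of pausing effects had a median of 0.89 with 66% called (17.9% of all genes), while that of Tet2 was −1.19. In KO FBS against WT FBS cells their median was −0.27 and Tet2 was at −1.22. The whole of chromosome 3 had medians of 0.14 for KO pausing and 0.23 for KO paused against WT paused cells, so the shift was larger around Tet2 than over the chromosome. The neighbours of the other 7 genes had medians between −0.16 and 0.20 in these comparisons, and DNA copy number was not measured.

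**Figure D5:**
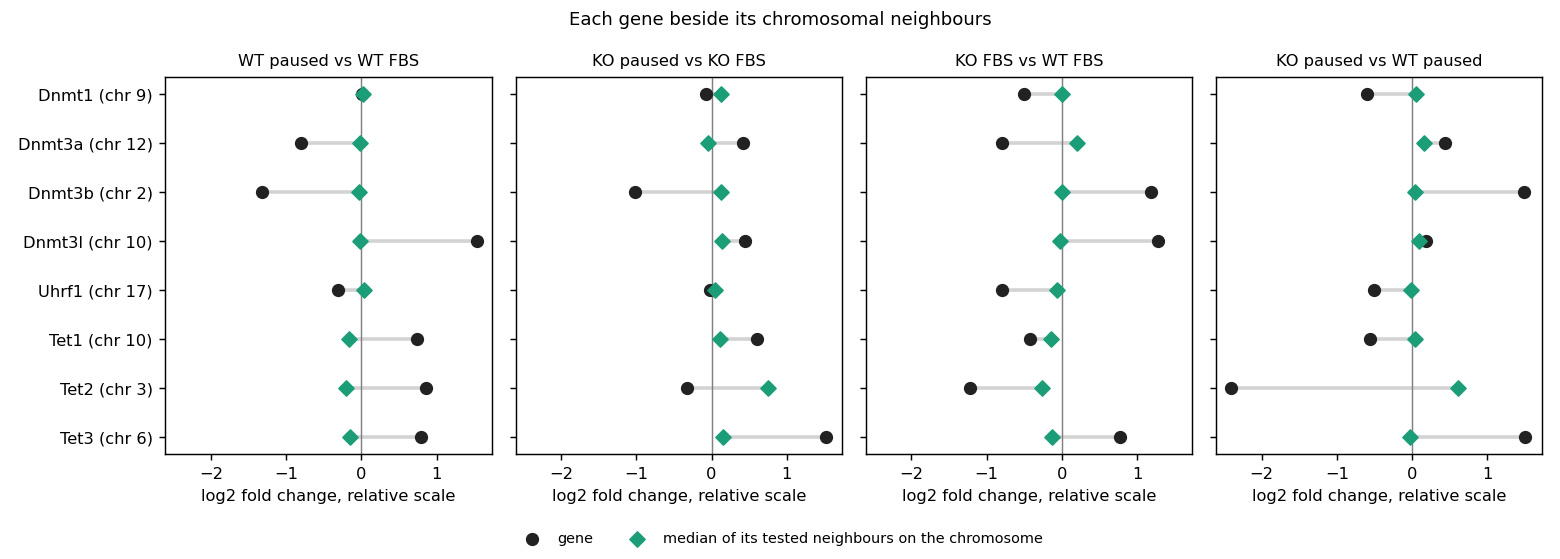
Log2 fold change on the relative scale (horizontal axis) of each gene (circle) and the median of its tested neighbours on the same chromosome (diamond) in 4 comparisons; there are 50 neighbours per gene and 31 for Dnmt3a. The diamonds of Tet2 stand at 0.74 in KO paused against KO FBS cells and at 0.62 in KO paused against WT paused cells, on the other side of 0 from Tet2, and the diamonds of the other genes stay between −0.16 and 0.20.

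The wider pathway was read from 6 lists of 65 genes, 62 of which were tested; Dnmt3c was not analysed here, and Tdg and Amd1 did not pass the filter on low counts. On the relative scale 12 rose and 17 fell in WT paused against WT FBS cells, 16 rose and 13 fell in KO paused against KO FBS cells, 13 rose and 27 fell in KO FBS against WT FBS cells, and 16 rose and 20 fell in KO paused against WT paused cells. As shares of the 62, 19.4% rose and 27.4% fell with WT pausing, against 18.0% and 20.2% of all tested genes, and 25.8% rose and 21% fell with KO pausing, against 23.3% and 19.4%. Between genotypes 21% rose and 43.5% fell in FBS, against 28.4% and 29.4% of all genes, and 25.8% rose and 32.3% fell in paused cells, against 27.9% and 23.9%. The counts of each single list stand against the same shares of all genes. The list medians over these comparisons were log2 −0.09, 0.05, −0.22 and −0.03, against those of all genes (−0.02, 0.03, −0.04 and 0.01). Per cell, 0 of the 62 rose and 48 (77.4%) fell with WT pausing, where 68.8% of all genes fell. With KO pausing 0 rose and 30 (48.4%) fell, where 45.7% of all genes fell. Between genotypes, per cell, 3 rose (4.84%) and 7 fell (11.3%) in FBS, against 19.1% and 9.81%. In paused cells 13 rose (21%) and 2 fell (3.23%), against 27.1% and 5.62%. Calls and fold changes of pathway genes below are on the relative scale, against the typical gene, and not per cell.

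Of the 11 tested partners of maintenance, 7 fell and none rose in WT paused against WT FBS cells (list median −0.30), where 20.2% of all tested genes fell. Among them were Pclaf (listed as 2810417H13Rik), a PCNA-binding factor that recruits Dnmt1 when ubiquitinated (−1.57 ± 0.23, edgeR adjusted p = 0.000373), Pcna, the replication clamp (−0.77 ± 0.16), Usp7, a deubiquitinase that binds Dnmt1 (−0.45 ± 0.11), and Dppa3, which displaces Uhrf1 from chromatin in oocytes (−2.05 ± 0.40). In KO paused against KO FBS cells 3 of 11 fell, where 19.4% of all tested genes did, and the other 8 did not pass. They were Dppa3 (−2.68 ± 0.31), the remodeller Hells (−0.67 ± 0.16) and Pclaf (−0.96 ± 0.23). In KO FBS against WT FBS cells 6 fell, among them Cdca7, which brings Hells to chromatin (−0.98 ± 0.10), the ligase Lig1 (−0.81 ± 0.09) and Pcna (−1.23 ± 0.16), while Dppa3 rose (2.62 ± 0.31). Dppa3 averaged 5.02 CPM in KO paused and 32.5 CPM in KO FBS libraries, against 1.13 CPM in WT paused and 4.97 CPM in WT FBS libraries. In KO paused against WT paused cells 5 fell and 2 rose, with Lig1 (−0.69 ± 0.09), Cdca7 (−0.64 ± 0.10), Hells (−0.90 ± 0.16) and Pcna (−0.81 ± 0.16) among those that fell.

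Regulators of de novo methylation were mixed, with Zfp57 the largest change of the list. Zfp57, a zinc finger protein that keeps methylation at imprinted regions, averaged 159 CPM in KO paused and 162 CPM in KO FBS libraries, against 651 CPM in WT paused and 303 CPM in WT FBS libraries. It rose in WT paused against WT FBS cells (log2 1.1 ± 0.19, edgeR adjusted p = 0.000906; 0.86 without WT FBS replicate 1) and fell in KO paused against WT paused cells (−2.03 ± 0.19, edgeR adjusted p = 3.22e-06). The pausing effects differed by −1.13 ± 0.26 (edgeR adjusted p = 0.0117; −0.91 without that library). For that difference the 50 neighbours of Zfp57 on chromosome 17 had a median of −0.54 with 26% called (17.9% of all genes). Their medians were 0.27 in WT paused against WT FBS cells and −0.36 in KO paused against WT paused cells. The part of the region in the change of Zfp57 was not tested. Setdb1, a histone H3 lysine 9 methyltransferase, rose in KO paused against WT paused cells (0.55 ± 0.09) and in KO FBS against WT FBS cells (0.39 ± 0.09). Of the 9 tested, 2 rose and 1 fell in WT paused against WT FBS cells and 3 rose and 1 fell in KO paused against KO FBS cells, while between genotypes 4 rose and 1 fell in FBS and 3 rose and 2 fell in paused cells.

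Of the 8 TET partners and cofactor genes, 4 rose and 3 fell in WT paused against WT FBS cells and 4 rose and 1 fell in KO paused against KO FBS cells; 3 rose and 3 fell between genotypes in FBS, and 3 rose and 2 fell in paused cells. Cxxc5, a CXXC protein that binds Tet2, rose in KO paused against KO FBS cells (log2 1.06 ± 0.09, edgeR adjusted p = 3.12e-06) and in WT paused against WT FBS cells (0.59 ± 0.09, edgeR adjusted p = 0.000475). Idh2, which makes 2-oxoglutarate, the TET cosubstrate, in mitochondria, rose by 0.61 ± 0.12 in KO paused against KO FBS cells and by 0.66 ± 0.12 in WT paused against WT FBS cells, and cytosolic Idh1 fell in both (−0.59 ± 0.13 in KO and −0.72 ± 0.13 in WT cells). Cxxc4, which lies among the neighbours of Tet2 (chromosome 3, 134236484 to 134262161) and whose protein lowers Tet2 protein, had 66, 62 and 125 counts in KO paused and 29, 52 and 67 counts in KO FBS libraries, against 0, 1 and 1 counts in WT paused and 1, 10 and 5 counts in WT FBS libraries. Every KO library was above every WT library. Cxxc4 passed the filter on low counts through the KO libraries, where it is high, so no fold change is given between genotypes and its calls there are no support for a difference.

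Of the 15 tested genes of base excision and demethylation repair, 2 rose and 3 fell in WT paused against WT FBS cells, 1 rose and 5 fell in KO paused against KO FBS cells, 3 rose and 9 fell in KO FBS against WT FBS cells and 3 rose and 7 fell in KO paused against WT paused cells. Parp1, a sensor of strand breaks, fell in KO FBS against WT FBS cells (log2 −1.08 ± 0.10, edgeR adjusted p = 1.81e-06), and so did Polb, the gap-filling polymerase (−0.98 ± 0.10). Their neighbours on chromosomes 1 and 8 had medians of −0.48 each in that comparison. Gadd45a, a stress-response gene linked to demethylation, rose in KO paused against KO FBS cells (1.18 ± 0.16) and in WT paused against WT FBS cells (0.55 ± 0.16). It fell in KO FBS against WT FBS cells (−1.32 ± 0.16, edgeR adjusted p = 2.17e-05) and in KO paused against WT paused cells (−0.70 ± 0.16, edgeR adjusted p = 0.00266). Its paralogue Gadd45g went the other way between genotypes and rose by 2.92 ± 0.32 in FBS (edgeR adjusted p = 9.25e-06) and by 4.04 ± 0.43 in paused cells (edgeR adjusted p = 8.07e-06). Gadd45g averaged 4.23 CPM in KO paused and 5.42 CPM in KO FBS libraries, against 0.25 CPM in WT paused and 0.737 CPM in WT FBS libraries. These fold changes therefore rest on few counts in the WT libraries. With pausing Gadd45g fell in WT cells (−1.48 ± 0.54, edgeR adjusted p = 0.0454, and 0.0532 without WT FBS replicate 1). In KO cells it was at −0.35 ± 0.26 (edgeR adjusted p = 0.302). Of the 9 methyl-CpG readers, 4 rose and 1 fell in WT paused against WT FBS cells and 6 rose and 1 fell in KO paused against KO FBS cells, while 1 rose and 3 fell between genotypes in FBS and 4 rose and 1 fell in paused cells. Zbtb4, a zinc finger gene, rose with pausing in KO (1.36 ± 0.22, edgeR adjusted p = 0.000368) and in WT cells (1.28 ± 0.24, edgeR adjusted p = 0.00171). Of the 10 tested genes of the methyl donor cycle, 2 fell in WT paused against WT FBS cells, 2 rose and 2 fell in KO paused against KO FBS cells, 1 rose and 5 fell between genotypes in FBS, and 1 rose and 3 fell in paused cells. Ahcy, which clears the methylation product S-adenosylhomocysteine, fell in WT paused against WT FBS cells (−1.28 ± 0.19, edgeR adjusted p = 0.000347) and in KO paused against KO FBS cells (−0.68 ± 0.18, edgeR adjusted p = 0.0104). Ahcyl1, on chromosome 3 as Tet2 is, rose in KO paused against KO FBS cells (1.04 ± 0.08, edgeR adjusted p = 1.13e-06), where its 50 neighbours had a median of 1.21 with 86% called.

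The genes whose pattern over the 12 libraries was most like that of each gene were found as the smallest root mean square difference of centred log2 CPM. Predicted and clone-named genes were left out of this search. For Uhrf1 the most similar genes were Mcm2 (0.0749), Lig1 (0.0773) and Hnrnpl (0.0814), and for Dnmt1 Vrk1 (0.0686), Hnrnpu (0.0773) and Sugp1 (0.0776). The median over the tested genes that were searched was 0.545 for Uhrf1 and 0.498 for Dnmt1. For Dnmt3b they were Sdc1 (0.16), Pkig and Gng10, for Dnmt3l Snx25 (0.22), Nid2 and Atcay, and for Dnmt3a Bola1 (0.191), Nefh and Cltb. For Tet1 they were Brf1 (0.089), Dis3l2 and Zfp59, for Tet2 Dnase1 (0.269), Lamc1 and Cdyl2, and for Tet3 Lats2 (0.189), Pomgnt2 and Pcnxl2. Among the 8 genes themselves, Dnmt1 and Uhrf1 were the most alike pair (0.132) and Dnmt3b and Tet2 the least (1.84).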

How the data were processed

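Unnormalised read counts, 1 row per gene symbol plus 92 ERCC rows, were deposited by the authors together with log2 values that, per the file headers, were normalised to cell number. Per the submitters' processing notes, Trim Galore 0.4.0, Subread 1.5.0, featureCounts, edgeR 3.32.1 and mm10 were used, and no annotation or strand setting is given in the sources used here. Per the labels' protocols, equal numbers of cells were lysed.

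The counts of all 12 libraries were fitted with edgeR 4.0.16 (robust quasi-likelihood test, R 4.3.3) as 4 groups with 1 shared spread, after a filter with a minimum count of 10 and a minimum total of 15, with Benjamini-Hochberg adjustment over all 15281 genes and a threshold of 0.05. Library size was the gene total (relative scale) or the ERCC total (per cell scale), each with a TMM factor. Intervals are 1.96 SE. Ratios within libraries used a pseudocount of 0.5 and exact two-sided permutation tests. The fit was tested on simulated data. No 2 libraries agreed within sampling noise. DESeq2 1.42.0, and limma 3.58.1 on the deposited log2 values, were alternatives. Positions come from GENCODE vM21 (23383 of 24421 rows matched), promoters from RefSeq. The text names the 8 genes, up to 4 genes per pathway list and comparison with the lowest adjusted p, and 3 most similar genes per gene. A pathway gene that this rule names is not reported here. Members and lists were chosen with earlier results of these data known.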

Additional observations from a re-analysis of the deposited data

Results flagged for a closer look

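The pausing effect differed between the genotypes for 4 of the 8 genes on at least 1 scale, by the test of the difference itself. None of them was called on both scales in the reported fit. On the relative scale the pausing effect in KO cells minus that in WT cells was −1.09 for Dnmt3l, −1.19 for Tet2 and 0.73 for Tet3. There 17.9% of all tested genes were called. On the per cell scale the difference was 1.43 for Dnmt3a, where 3.04% of all genes were called higher and 1.66% lower. The 3 relative differences held with any 1 of the 12 libraries left out, and none of them was called per cell. The per cell Dnmt3a call (edgeR adjusted p = 0.04) was lost when any of 9 of the 12 libraries was left out. It was also lost with no filter on low counts or no TMM factor on the ERCC rows. On the relative scale the Dnmt3a difference was not called in the reported fit (edgeR adjusted p = 0.0683). It was called there once WT FBS replicate 1 was left out, at log2 1.56.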

How the results depend on the processing

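On the relative scale the numbers of genes and of the 8 members called stayed within 1.5 times the reported values under DESeq2, median-of-ratios size factors, no filter on low counts and TMM without the chromosomes shifted between genotypes. With only the 2 compared groups in the fit, 2769 genes were called for WT pausing and 6 of the 8 for KO pausing (per cell, 2 of the 8 for KO pausing and 2916 genes for KO FBS against WT FBS). With ERCC as library size, 10688 genes were called for WT pausing, 4416 and 4 of the 8 for KO FBS against WT FBS, 5005 for KO paused against WT paused, 718 and 1 of the 8 for the difference of pausing effects, and 5 of the 8 for KO pausing. Directions then turned for WT pausing in Dnmt1 (−1.01), Tet1 (−0.30), Tet2 (−0.19) and Tet3 (−0.26), for KO pausing in Dnmt3a (−0.37), Dnmt3l (−0.36) and Tet1 (−0.15), and for the difference of effects in Dnmt1 (0.17) and Tet1 (0.15). The share of calls that were higher fell to 1.6% in WT pausing and 5.1% in KO pausing, against 47.1% and 54.5% on the relative scale. The remaining turns were in values near 0: Dnmt1 in WT pausing was −0.003 with median-of-ratios factors and −0.008 with the 2 groups alone.

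Per cell, the difference of effects had 0 of the 8 called by edgeR with no filter or no TMM factor on the ERCC rows (2 at an unadjusted p under 0.05 in the reported fit). Limma on the deposited values called 4756 genes and 3 of the 8 for KO pausing. The reported fit did not use the replicate numbers to pair the samples. Of 18 pairs of same-numbered libraries 10 had deviations correlated above 0.1 and 17 above 0 (−0.022 to 0.27). Among the 12 libraries, 10 correlated best with their own number. That is a hint of pairing, from the data and not from the design. With the number as a block, the per cell difference of effects had 1970 genes and 2 of the 8 called, and the relative counts moved by less than 1.5 times. The block lost no call of the 8 genes. It added, on the relative scale, Dnmt3a for WT pausing (edgeR adjusted p = 0.0327) and for the difference of effects (0.0342) and Dnmt3l for KO pausing (0.0272), and per cell Dnmt3l for WT pausing (0.0222) and between paused genotypes (0.0166), Dnmt3a (0.0138) and Uhrf1 (0.00239) between genotypes in FBS, and Tet3 for the difference of effects (0.01). The cause of these shifts was not tested.

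With 1 of the 12 libraries left out, the relative numbers of genes called were 4171 to 9219 for WT pausing and 1819 to 6463 for the difference of effects, highest in both without WT FBS replicate 1 and lowest without WT FBS replicate 2 and KO paused replicate 2. Per cell they were 4112 (without KO paused replicate 1) to 10459 (without KO FBS replicate 1) for KO pausing and 397 (without KO paused replicate 2) to 1718 (without KO FBS replicate 2) for the difference of effects. Of the 8 genes, 1 to 6 were called per cell for KO pausing (lowest without KO paused replicate 3, highest without KO FBS replicate 1) and 0 to 2 for the difference of effects. The direction turned in these runs for values that were not called in the reported fit. On the relative scale these were Dnmt1 in WT pausing (−0.071 to 0.072) and Uhrf1 in KO pausing (−0.104 to 0.064). Per cell they were Dnmt3l (−0.686 to 0.008) and Tet1 (−0.366 to 0.165) in KO pausing, Uhrf1 in KO paused against WT paused cells (−0.342 to 0.002), and Dnmt1 (−0.079 to 0.469) and Tet1 (−0.062 to 0.468) in the difference of effects. Among the ratios they were Dnmt3l/Dnmt3a in KO pausing (−0.055 to 0.209), Tet3/Tet1 in WT pausing (−0.058 to 0.133) and Dnmt1/Dnmt3a in FBS (−0.187 to 0.624).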
